A study of Solanum lycopersicum with 6 samples.

Results

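miR396 is one of the conserved plant miRNA families. In the small RNA lists of tomato (*Solanum lycopersicum*) pedicels, its members were found by name, as every entry whose name before the first hyphen is miR396 with or without a letter. These are 48 of the 826 entries of the 6 libraries. Each library listed 8 of them, namely a 5p and a 3p entry for each of 4 loci, miR396a, miR396b, miR396c and miR396d, and all 48 carried the evidence word Known. An entry that comes from the same locus and the same arm is called a row here, so that there are 8 miR396 rows with a value in every library.

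A plant miRNA is cut from a hairpin precursor as a duplex of 2 strands, one from the 5′ side (5p) and one from the 3′ side (3p). One strand, the mature strand, is usually loaded into ARGONAUTE and guides it to target mRNAs, and its partner is called the star strand. The 5p strand of miR396 is best known for repressing mRNAs of GROWTH-REGULATING FACTORs (GRFs), transcription factors that act with GRF-INTERACTING FACTOR coactivators to keep cells of growing organs dividing. In Arabidopsis, miR396 accumulates as leaf cells leave proliferation, and TCP transcription factors, which are themselves repressed by miR319, raise its level. GRF mRNAs were not measured in these libraries.

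The compared lines were WT "Micro-Tom" and *hws-1*, a line of the same cultivar that carries a weak allele of the F-box gene *HAWAIIAN SKIRT* from chemical mutagenesis. Both were sampled at 10 days after anthesis, from the distal part of the pedicel, with several segments bulked into each of the 3 samples of a line, which are called replicates by their labels. The lists hold only miRNAs, so that neither the tissue nor the *HWS* transcript could be checked in them. Values are in RPM (reads per 1000000 reads), and from the value of a single read the WT libraries were scaled from 257797 to 313526 reads and the *hws-1* libraries from 114212 to 180179 reads. Every *hws-1* library was therefore shallower than every WT library, and depth and line cannot be told apart.

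miR396 was an abundant family in both lines. Summed over both arms and all loci, it reached 15319 ± 2684 RPM (SD, n = 3) in WT and 21917 ± 4172 RPM (SD, n = 3) in *hws-1*, and it ranked between 3 and 5 among the families of each library. It made up 7.84% to 11.57% of the listed RPM in WT and 11.72% to 12.16% in *hws-1*. The libraries of the lines overlapped in the sum, with the lowest *hws-1* library at 17587 RPM and the highest WT library at 18403 RPM.

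To see whether a letter stands for the same locus in every library, the places of the loci in the lists were compared. miR396a and miR396b stood next to each other in 6 of 6 libraries, and miR396c and miR396d did so further down, directly after miR9471b. The number and order of the miR396 loci were thus the same in all libraries. The letters ran in the order of each list, so joining rows by letter or by place gave the same rows by construction. That join cannot show that a letter is the same locus. The neighbour before miR396a varied between libraries, and the one after miR396b was miR9473 in WT and miR9470 in *hws-1*. The levels did not follow these pairs of neighbouring loci. On both arms, miR396a went with miR396d, and miR396b had nearly the 5p values of miR396c.

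On the 3p arm, miR396a and miR396d held identical values in 6 of 6 libraries. On the 5p arm, they were identical in 3 libraries and differed by 2, 4 and 2 reads in WT replicates 1 and 2 and *hws-1* replicate 1. The 5p rows of miR396b and miR396c were identical in WT replicate 3 and elsewhere differed by between 1 and 5 reads. All of these differences were whole reads, although the read numbers themselves were fractions, such as 645.9 for miR396a-5p and 643.9 for miR396d-5p in WT replicate 1. Fractions of this kind arise when a read that fits several positions is divided between them, a step that the sources used here do not describe. Rows of such a pair are not independent of each other, and the sums, shares and counts given here include both unless stated. On the 3p arm, by contrast, miR396b and miR396c were not identical in any library. Over the whole series, 13 pairs of rows were identical in all libraries, and miR396a-3p with miR396d-3p was 1 of them.

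The 5p rows of the 4 loci stood at similar levels. miR396a-5p had 2060, 2446 and 1940 RPM in WT replicates 1, 2 and 3 and 1624, 3092 and 1797 RPM in *hws-1* replicates 1, 2 and 3. miR396b-5p had 2087, 1396 and 2212 RPM in WT and 2141, 2868 and 2194 RPM in *hws-1*. Within each row the lines overlapped, and *hws-1* replicate 2 was the highest library of both. The order of the 2 rows was not fixed, since miR396a-5p was 1.75 times miR396b-5p in WT replicate 2 and between 0.76 and 1.08 times in the other 5 libraries. miR396d-5p ranged from 1612 to 3092 RPM and miR396c-5p from 1380 to 2862 RPM, as their near-identity with the former rows requires.

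The 3p rows differed widely between loci. miR396a-3p, and with it miR396d-3p, had 2525, 2669 and 4652 RPM in WT replicates 1, 2 and 3 and 4778, 6578 and 6611 RPM in *hws-1* replicates 1, 2 and 3. miR396b-3p had 605.8, 424.8 and 645.6 RPM in WT and 322.6, 608.4 and 798.2 RPM in *hws-1*. miR396c-3p was the lowest, at 105.3, 98.3 and 146.6 RPM in WT and 219.1, 232.0 and 278.1 RPM in *hws-1*. For miR396a-3p, miR396d-3p and miR396c-3p, the 3 *hws-1* libraries were the 3 highest, whereas for miR396b-3p the lowest and the highest library were both from *hws-1*. In each library the 3p order was the same, with miR396a and miR396d first, miR396b next and miR396c last. miR396a-3p and miR396d-3p together held between 87.7% and 94.6% of the 3p total, and miR396c-3p between 1.45% and 2.17%.

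**Figure D1:**
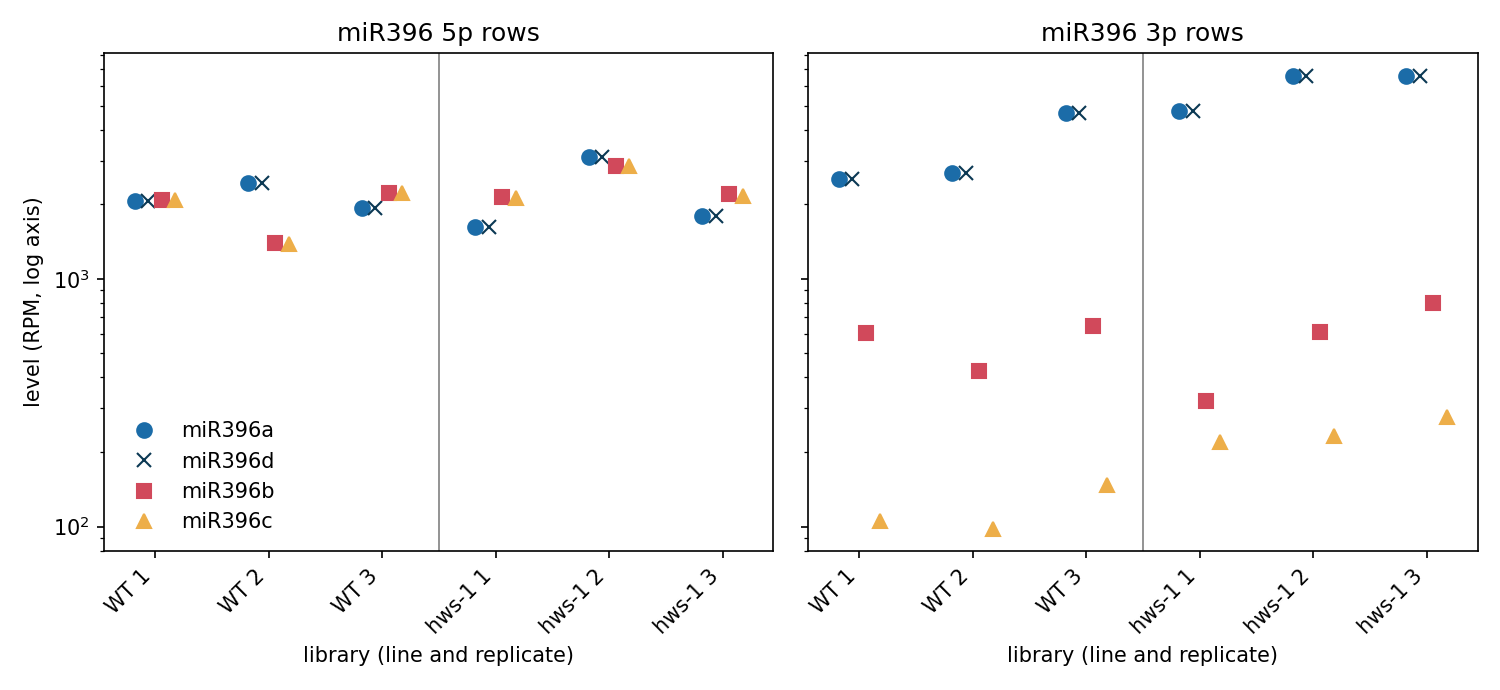
Level of each miR396 row in RPM (log axis) in each of the 6 libraries, for the 5p arm (left) and the 3p arm (right), 1 marker per locus. On the 5p arm all markers lie between 1380 and 3092 RPM and form 2 pairs, while on the 3p arm miR396a and miR396d coincide, up to 6611 RPM, far above miR396b and miR396c.

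The balance of the arms therefore depended on the locus. The ratio of 3p to 5p at miR396a was 1.23, 1.09 and 2.40 in WT replicates 1, 2 and 3 and 2.94, 2.13 and 3.68 in *hws-1* replicates 1, 2 and 3, so that the 3p strand was the more abundant one in every library. At miR396b the 5p strand prevailed, with ratios of 3p to 5p of 0.290, 0.304 and 0.292 in WT and 0.151, 0.212 and 0.364 in *hws-1*. At miR396c the 3p strand was scarce, with ratios of 0.051, 0.071 and 0.066 in WT and 0.104, 0.081 and 0.128 in *hws-1*. The 3 WT libraries thus stood close together at miR396b (coefficient of variation 2.62%), where the *hws-1* libraries spread to both sides of them (45.3%). miR396d followed miR396a, with ratios between 1.10 and 3.68. Because rows of a pair may share reads, the ratio of a single locus also depends on how such reads were divided.

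Summed over the loci, the ratio of 3p to 5p was 0.696, 0.766 and 1.22 in WT and 1.35, 1.17 and 1.80 in *hws-1*. In WT replicates 1 and 2 the 5p strands were in excess, and in WT replicate 3 and all *hws-1* libraries the 3p strands. The lines overlapped, since WT replicate 3 was above *hws-1* replicate 2. This order depended on how identical rows were counted. With rows of identical value in a library counted once, which takes in the 3p pair in all libraries but a 5p pair only where it was exactly equal, the ratio was 0.391, 0.417 and 1.31 in WT and 0.710, 0.841 and 1.25 in *hws-1*. The 5p strands were then in excess in *hws-1* replicates 1 and 2 too, and WT replicate 3 was the highest library. Among the 20 families with both arms in all libraries, miR396 had the second most even arms, with a mean distance of 0.45 from equality on the log2 scale, whereas that of miR159 was 5.68.

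**Figure D2:**
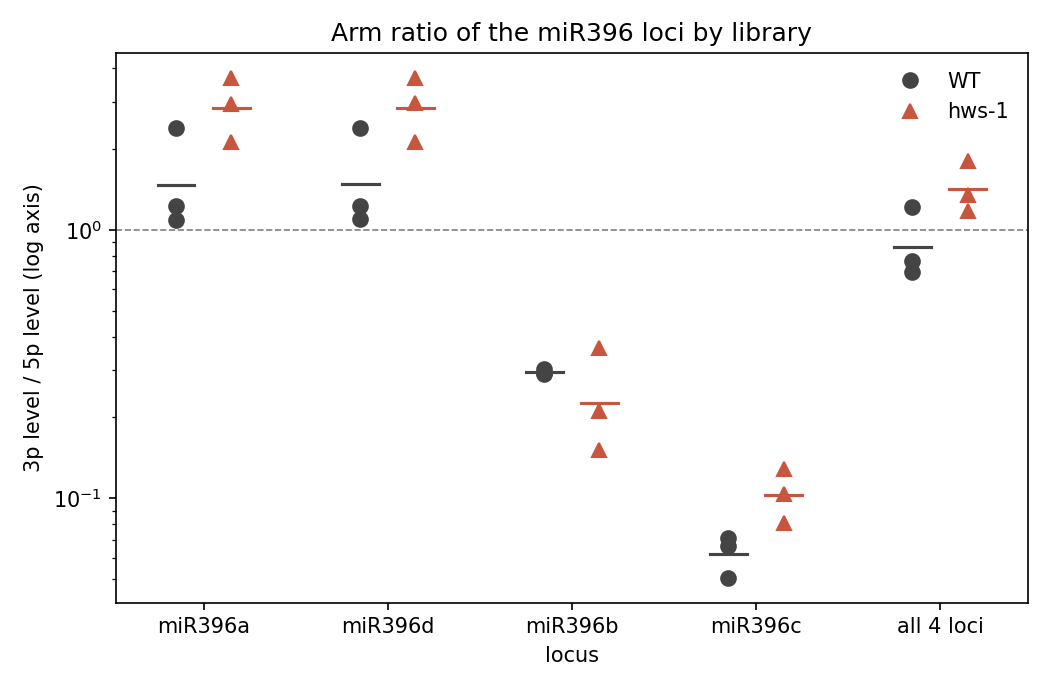
Ratio of the 3p level to the 5p level (log axis) at each miR396 locus and over all 4 loci, with 1 point per library and a bar at the geometric mean of the line. The dashed line marks equal arms. miR396a and miR396d lie above it in all libraries (1.09 to 3.68), miR396b and miR396c below it (0.051 to 0.364).

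The words mature and star followed this balance only in part. At miR396a and miR396d, the 5p strand was named mature in WT replicates 1 and 2, and the 3p strand in WT replicate 3 and all *hws-1* libraries. In WT replicates 1 and 2 the named mature strand was the lower one. Of the 24 listings of a miR396 locus, the mature strand was the higher one in 20, compared with 386 of 413 listings over the series. The change of name matters for the comparison of the lines, because rows joined by their full designation lose miR396a and miR396d on both arms, and 4 of the 8 miR396 rows remain. A change of the mature arm between libraries was found at 6 of the 44 names listed in all libraries, and 2 of the 6 are miR396 loci.

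To compare the lines, rows joined by full designation were tested by limma on log2(RPM + 1), and all fold changes below are on this scale. Of the 58 rows tested, 2 were higher in *hws-1* with an adjusted p-value under 0.05 (3.45%) and 2 were lower (3.45%), and none of the 4 miR396 rows was among them. With the replicate number as a block, 4 rows were higher and 4 lower, again with no miR396 row. At an unadjusted p under 0.05 in limma there were 11 of the 58 rows, and 1 of the 4 miR396 rows was among them. This was miR396c-3p, a star strand, with 116.7 ± 26.1 RPM (SD, n = 3) in WT and 243.1 ± 31.0 RPM (SD, n = 3) in *hws-1*. The means differed by a ratio of 2.08. On the log2 scale the change was 1.07 (standard error 0.33, 95% confidence interval 0.34 to 1.79), with an adjusted p of 0.064 by limma (0.088 with the replicate block), so that it did not pass.

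miR396c-3p is thus close to the threshold, and its call depended on the setting. It passed with a pseudocount of 10 RPM (adjusted p = 0.034 from limma), among the rows with a mean of at least 10 RPM (0.046) and without *hws-1* replicate 1 (0.039). With the pseudocount of 10 RPM, its log2 fold change was 1.01. Its standard error there, 0.35, was the same as for the other miR396 rows tested, so this pass did not rest on its own spread. Across all alternatives its adjusted p ranged from 0.034 to 0.59 and its log2 fold change from 0.68 to 1.24. The row rested on 33.0, 25.3 and 41.0 reads in WT and 39.5, 36.5 and 31.8 reads in *hws-1*. In reads the lines overlapped, with a ratio of 1.08, and in RPM they did not. Similar read numbers stand for higher RPM in the smaller *hws-1* libraries, and line and depth cannot be told apart.

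The other rows by designation changed less. miR396b-5p had 1898 ± 440 RPM in WT and 2401 ± 406 RPM in *hws-1* (SD, n = 3), and limma gave a log2 fold change of 0.35 with a standard error of 0.34 (adjusted p = 0.74). Without WT replicate 2, the lowest library of this row, the log2 fold change was 0.15. For miR396c-5p, whose values are nearly the same, the log2 fold change was 0.35 (adjusted p = 0.74 from limma), and 0.14 without WT replicate 2. miR396b-3p had 558.7 ± 117.7 RPM in WT and 576.4 ± 239.4 RPM in *hws-1* (SD, n = 3), with a log2 fold change of -0.03 in limma (adjusted p = 0.996). Its 95% confidence interval ran from -0.90 to 0.84, so that sizeable changes in either direction were not detectable at this spread. Of the 58 rows, 7 were higher in *hws-1* without overlap between the lines (12.1%), and miR396c-3p was the only miR396 row of them.

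With a join on name and arm, without the words mature and star, all 8 miR396 rows could be tested among 86 rows. In this fit 1 row was higher (1.16%) and 2 were lower (2.33%) at an adjusted p under 0.05, and none was a miR396 row. miR396a-3p had 3282 ± 1189 RPM (SD, n = 3) in WT and 5989 ± 1049 RPM (SD, n = 3) in *hws-1*. This is 1.82 times the WT mean, and limma gave a log2 fold change of 0.91 with a standard error of 0.35 and a 95% confidence interval of 0.09 to 1.73 (adjusted p = 0.21). miR396d-3p holds the same values and adds no evidence. WT replicate 3, at 4652 RPM, was close to *hws-1* replicate 1 at 4778 RPM, and without it the log2 fold change was 1.19 (adjusted p = 0.16). No alternative brought the row past the threshold, and its adjusted p ranged from 0.064 to 0.56. By contrast, miR396a-5p had 2149 ± 264 RPM in WT and 2171 ± 802 RPM in *hws-1* (SD, n = 3), with a log2 fold change of -0.04 in limma (adjusted p = 0.996). miR396d-5p had a log2 fold change of -0.04 as well. Of the 86 rows, 13 were higher in *hws-1* without overlap (15.1%), and 3 of the 8 miR396 rows were among them, 2 of which hold identical values.

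In reads, the 2 arms of miR396a differed in how they compared between the lines. miR396a-3p had 791.8, 688.2 and 1302 reads in WT and 860.9, 1034 and 755.1 reads in *hws-1*, overlapping between the lines. miR396a-5p had 645.9, 630.5 and 543.1 reads in WT and 292.5, 486.2 and 205.3 reads in *hws-1*, all below WT. Read numbers of *hws-1* were thus lower than in WT on the 5p arm of miR396a, as its library sizes were, and overlapped on the 3p arm. miR396b-3p had 189.9, 109.5 and 180.7 reads in WT and 58.1, 95.7 and 91.2 reads in *hws-1*, likewise all below WT. Every *hws-1* library was smaller than every WT library, so lower read numbers alone show no difference in level. In RPM, miR396a-5p and miR396b-3p overlapped between the lines, with log2 fold changes of -0.04 and -0.03. The share of all rows that lay below WT in reads was not counted.

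Sums over an arm do not depend on how reads are divided between loci of the family. The 5p total was 8279, 7651 and 8305 RPM in WT replicates 1, 2 and 3 and 7489, 11914 and 7955 RPM in *hws-1* replicates 1, 2 and 3. The 3p total was 5762, 5862 and 10097 RPM in WT and 10098, 13995 and 14299 RPM in *hws-1*. The 5p total overlapped between the lines, and the 3p total did not, although the highest WT library and the lowest *hws-1* library were almost tied. With identical rows counted once, the 3p total was 3236, 3192 and 5445 RPM in WT and 5320, 7418 and 7688 RPM in *hws-1*, and the lines overlapped.

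The mean 3p total was 7240 ± 2475 RPM (SD, n = 3) in WT and 12797 ± 2343 RPM (SD, n = 3) in *hws-1*, and the difference, at 1.77 times, did not pass the test. Among 44 family arms, limma put its log2 fold change at 0.86 with a standard error of 0.35 (adjusted p = 0.20, or 0.48 with the replicate block). With the block, every arm had the same standard error, 0.59. The 5p total had a ratio of 1.13, from 8079 ± 370 to 9120 ± 2431 RPM (SD, n = 3), with a log2 fold change of 0.14 (standard error 0.30, 95% confidence interval -0.57 to 0.86, adjusted p = 0.81 from limma). Among these 44 arms, 2 were higher at an adjusted p under 0.05 (4.55%), 4 with the replicate block, and neither miR396 arm was among them. Without overlap, 9 of the 44 were higher in *hws-1* (20.5%), including the 3p arm of miR396, which overlapped once identical rows were counted once (log2 fold change 0.81, adjusted p = 0.21 from limma). Rescaling the libraries to the same sum of listed rows shifted all arms by -0.21, which turned the 5p difference to -0.07 and left the 3p difference at 0.65. Centring each library on its median shifted them by -0.57, to -0.42 for 5p and 0.29 for 3p. Without *hws-1* replicate 2, the highest library on the 5p arm, the 5p difference was -0.065.

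The ratio of the arms within a library is not altered by rescaling the whole library. The log2 ratio of 5p to 3p of miR396 was 0.21 in WT and -0.50 in *hws-1* on average, a difference of -0.71 (standard error 0.33, 95% confidence interval -1.50 to 0.08). It did not pass (adjusted p = 0.17 from limma over 20 families). When the ratios of each library were centred on their median over the families, the difference was -0.60 (adjusted p = 0.42). None of the 20 families had a lower ratio in *hws-1* at an adjusted p under 0.05 (0%), and 4 did at an unadjusted p under 0.05, without miR396. With the replicate block, 3 families passed in either direction and miR396 did not (adjusted p = 0.18 from limma). A lower ratio was common, since it was found in 13 of the 20 families with a median difference of -0.30 over all, and that of miR396 was the seventh lowest.

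By locus, the difference in the log2 ratio of 5p to 3p was -0.95 at miR396a and at miR396d (standard error 0.41, adjusted p = 0.22 from limma over 33 loci). It was -0.72 at miR396c (standard error 0.32, adjusted p = 0.22 from limma) and 0.38 at miR396b (standard error 0.39, adjusted p = 0.68 from limma). The mean difference at miR396b thus had the other sign, but it fell to 0.089 without *hws-1* replicate 1 and was 0.72 without *hws-1* replicate 3. Centring the ratios of each library on their median over the loci gave -0.47 at miR396a and at miR396d, -0.24 at miR396c and 0.86 at miR396b, none of which passed. None of the 33 loci passed with a lower ratio (0%), with 5 at an unadjusted p under 0.05 in limma, none of them miR396. With the replicate block, 7 of the 33 loci were under 0.05 in limma before adjustment, with miR396a and miR396d among them. Neither was after it (adjusted p = 0.12 each from limma). These 2 loci have the same 3p values and nearly the same 5p values, so they are not independent. Within each replicate number, the ratio of 3p to 5p of miR396a was higher in *hws-1* than in WT. At how many other loci this held was not counted, and the ground for pairing by number is weak. A lower mean ratio of 5p to 3p in *hws-1* was common, at 26 of the 33 loci, with a median difference of -0.29 over all. At 7 of the 33 loci (21.2%) the ratio was lower in *hws-1* without overlap, and miR396c was the miR396 locus among these.

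**Figure D3:**
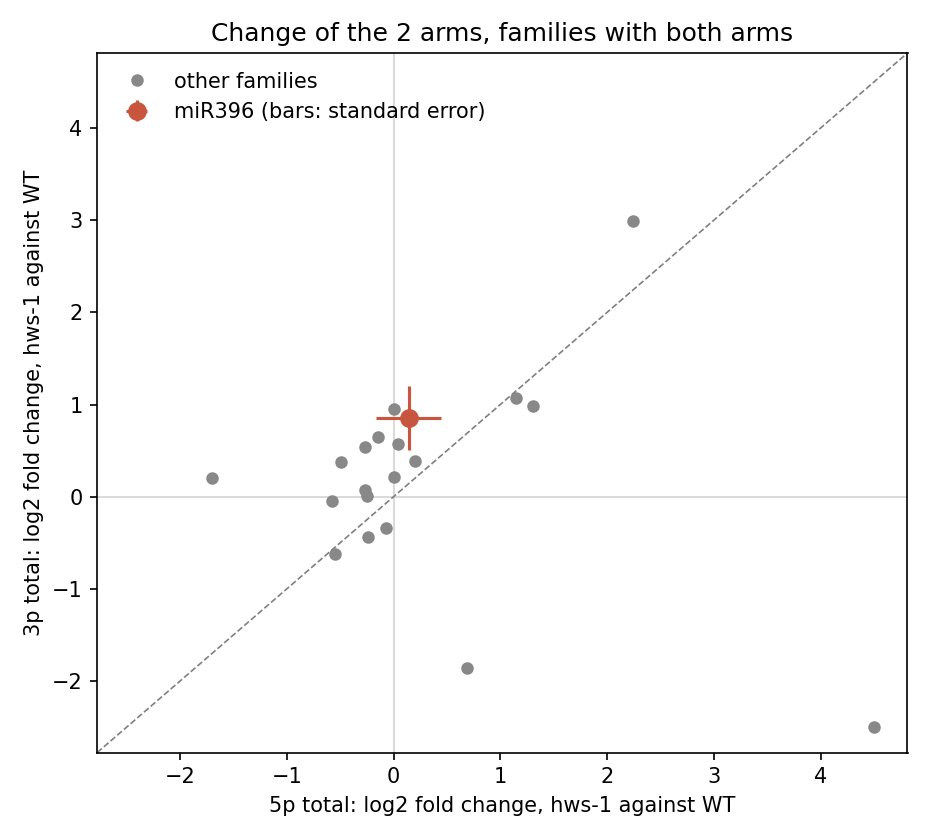
Log2 fold change between *hws-1* and WT of the 3p total against that of the 5p total, for the 20 miRNA families with both arms in all libraries, 1 point per family. The dashed line marks equal change of both arms and the bars on miR396 its standard errors. miR396 (0.14 on 5p, 0.86 on 3p) lies above the line, as do 12 other families.

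The profile of the 3p total over the 6 libraries was compared with that of the 33 other family arms with a mean of at least 100 RPM, after each was centred on its own mean. The nearest were miR6027-3p, miR164-3p and miR482-3p, with root mean square differences of 0.23, 0.26 and 0.30 on the log2 scale, where the median of the 33 was 0.62. miR164 represses NAC transcription factors of organ boundaries, and miR482 represses mRNAs of NLR immune receptors. The 5p total was nearest to miR159-3p (0.14), miR6027-5p (0.14) and miR166-3p (0.18), with a median of 0.44. miR159 represses GAMYB-like factors and miR166 HD-ZIP III factors. The other arm of miR396 was at 0.47 from each total, farther than all of these. These distances describe only 6 libraries, and within each library all profiles share its scaling and depth.

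Among families known to act beside miR396 in organ growth or phase change (miR319, miR159, miR164, miR160, miR167, miR156 and miR172), 10 rows could be tested by designation, all from the first 3 families. Of these, 2 were higher in *hws-1* and 1 was lower, where over all 58 rows 3.45% were higher and 3.45% lower. The 2 higher rows are the only ones called higher among all 58. The median log2 fold change was 1.11 over the 10 rows and 0.07 over all 58, and 6 of the 10 are miR319 rows. The miR319 5p rows lie near the floor, with no line mean above 7.96 RPM. The list was chosen with earlier results of these data known, so its contrast with all rows is no independent evidence. By limma, the log2 fold changes of the 3 rows called were 5.31 for miR319b-3p (adjusted p = 1.8e-07), 1.29 for miR319c-3p (adjusted p = 0.032) and -3.51 for miR319a-3p (adjusted p = 1.4e-05). For miR319, the places of the letters in the lists differ between the lines, with miR319a after miR159 in WT and miR319b in *hws-1*, so that these names need not stand for the same locus. The 3p total of miR319, which does not depend on the letters, differed by 0.45 on the log2 scale (limma, adjusted p = 0.50).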

How the data were processed

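Small RNA of 3 WT and 3 *hws-1* pedicel samples was sequenced by the authors and run through the One Step pipeline of sRNAminer, one library at a time. Its version and the genome build are not given in the sources used here. The deposited values are RPM per miRNA designation (TPM in the paper). How reads of several positions were counted is not given in the sources used here. Groups and replicate numbers were taken from the labels.

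The value of 1 read was taken as the largest step of which at least 30% of the distinct values of a library are whole multiples (relative tolerance 1e-06). Since 32.7% to 36.6% were whole, no count test was run. RPM of 1 read ranged from 3.19 to 8.76, which limits low rows. Tests used limma 3.58.1 in R 4.3.3 on log2(RPM + 1), fitted on the line alone, and p-values were adjusted by Benjamini and Hochberg over all features tested (threshold 0.05). Loci were tested on the log2 ratio of 5p to 3p as a fit added after the values were seen, as was the join by name and arm as the only fit of miR396a and miR396d. Python 3.11.15 and pandas 2.3.3 served to join the lists. The limma step was checked on simulated data.

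Deviations from the line means had correlations of 0.16, 0.22 and 0.23 in samples that share a replicate number. Samples that do not share one had correlations from -0.33 to 0.14, so the ground for pairing is weak. The numbers come from the labels, and a replicate block was fitted as an alternative only. Other alternatives were pseudocounts of 0.1 and 10 RPM, a mean of at least 10 RPM, rescaling, median centring, an intensity trend, other joins, identical rows counted once, and leaving out each library. All miR396 rows are named, and other miRNAs are the 3 nearest profiles to each arm total and the rows of the growth list that passed. The members, lists and tests were chosen with earlier results of these data known. Whether replicates came from separate plants is not stated, so p-values measure the spread between these samples. Where a fit gave all features the same standard error, they measure that spread pooled over all features.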

Additional observations from a re-analysis of the deposited data

How the results depend on the processing

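No miR396 row passed by designation as reported, and 1 passed with a pseudocount of 10 RPM and 1 after rows with means under 10 RPM were left out (miR396c-3p each time). When each library was left out in turn, between 0 and 1 miR396 rows passed. The log2 fold change of the 5p total changed sign with rescaling (-0.066) and median centring (-0.42), and ranged from -0.065, without *hws-1* replicate 2, to 0.27 over the fits without one library. Median centring also turned miR396b-5p (-0.028) and miR396c-5p (-0.034). The fits without one library ranged from -0.31 to 0.34 for miR396b-3p, from -0.32 to 0.14 for miR396a-5p and from -0.32 to 0.15 for miR396d-5p. The 3p total (0.29 to 1.12), miR396a-3p (0.41 to 1.19) and the family's log2 ratio of 5p to 3p (-0.96 to -0.54) kept their direction under every alternative run and passed under none. The replicate block changed no call of a miR396 row, arm or ratio, while it moved the number of all rows called from 4 to 8 by designation, from 3 to 10 by name and arm, and from 3 to 7 family arms. By designation and for family arms, the block fit gave all features the same standard error, so those calls did not rest on the spread of each feature. Rescaling and median centring shifted rows joined by designation by -0.21 and -0.38. With 3 libraries a line and shallower *hws-1* libraries, line and depth cannot be told apart for the differences on the 3p arm.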

Other observations

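Within the 3p arm, the proportion of miR396b-3p to the other loci was lower in the *hws-1* libraries than in the WT libraries. The ratio of miR396b-3p to miR396c-3p was 5.76, 4.32 and 4.40 in WT replicates 1, 2 and 3 and 1.47, 2.62 and 2.87 in *hws-1* replicates 1, 2 and 3, without overlap. The share of miR396b-3p in the 3p total was 10.5%, 7.25% and 6.39% in WT and 3.19%, 4.35% and 5.58% in *hws-1*, also without overlap. The ratio of miR396a-3p to miR396b-3p was 4.17, 6.28 and 7.21 in WT and 14.8, 10.8 and 8.28 in *hws-1*, without overlap. The ratio of miR396a-3p to miR396c-3p overlapped, at between 24.0 and 31.7 in WT and between 21.8 and 28.4 in *hws-1*. These ratios are independent of the scaling of a library, were chosen after their values were seen and were not tested. How many ratios of other rows separate the lines was not counted. miR396c-3p rested on only 25.3 to 41.0 reads in a library.

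RefSeq (assembly SLM_r2.1, used for names and neighbours only) names 2 MIR396 genes, whereas each list holds 4 loci. Among RefSeq miRNA genes, MIR396b directly precedes MIR9473, and in 3 of 3 WT libraries miR9473 directly follows the pair of miR396a and miR396b, while in 3 of 3 *hws-1* libraries miR9470 does. MIR396a follows MIR9471b and MIR171d, and in 6 of 6 libraries the pair of miR396c and miR396d directly follows miR9471b. The letters of the lists therefore need not be those of RefSeq.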
